A study of Homo sapiens with 8 samples.

Results

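Under ATRA, peaks of both histone marks were present at the start of CYBB, the gene for the catalytic subunit of the phagocyte NADPH oxidase, where the control libraries held no H3K4me3 peak. H3K27ac covered a greater length in both ATRA libraries than in both control libraries at CYBB, CYBA, NCF4 and RAC2, and H3K4me3 did so at CYBB and NCF1. The same held for H3K27ac at 33.7% and for H3K4me3 at 30.1% of all protein-coding genes. The H3K27ac peaks at CYBA were short, and NCF1 lies in a segment with near-identical copies. Once each length was divided by the total covered length of its library, the H3K27ac groups overlapped at NCF4 and RAC2. The 5 genes, CYBB, CYBA, NCF1, NCF4 and RAC2, were chosen by name as components of the enzyme, out of 20090 protein-coding genes on chromosomes 1 to 22 and X, and the rule that chose them uses no measured value, although earlier results of these data were known.

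HL-60, a human cell line started from the blood of a patient with promyelocytic leukemia, matures towards granulocytes when it is given all-trans retinoic acid (ATRA). The ATRA group received 1 µM ATRA for 4 days and the control group received the same volume of ethanol, the solvent, and both groups are this 1 line with no genetic change between them. Each group gave 2 H3K4me3 and 2 H3K27ac ChIP-seq libraries, 8 in all, and the values are the positions of the broad peaks that the authors called in each library on the human build hg19. H3K4me3 marks active promoters, and H3K27ac marks active promoters and enhancers.

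The phagocyte NADPH oxidase passes electrons from NADPH across the membrane to oxygen and so makes superoxide, which neutrophils use to kill ingested microbes. The membrane part is cytochrome b558, a pair of CYBB (gp91phox) and CYBA (p22phox), and the cytosolic part includes the organizer NCF1 (p47phox) and NCF4 (p40phox), which join the membrane part together with the small GTPase RAC2 when the cell is activated. Inherited loss of CYBB, CYBA, NCF1 or NCF4 causes chronic granulomatous disease, in which the making of superoxide by phagocytes is lost or impaired.

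The promoter stretches of CYBB, CYBA and NCF1 are shown because peaks at the first and second of these genes differed between conditions and because the third is repeated elsewhere in the genome. They were taken from RefSeq promoters of build GRCh38.p14, which matched 3 of the 5 genes, and each was found by an exact match on GRCh37 (hg19). The bases run 5′ to 3′ on the strand of the gene and end at the base before the annotated transcription start site (TSS), and capitals mark the word GAGGAA, the core of a PU.1-type ETS motif, which reads TTCCTC on the opposite strand. The CYBB stretch of 209 bases lies at chrX:37639062-37639270 on the plus strand, that of CYBA of 220 bases at chr16:88717492-88717711 on the minus strand, and that of NCF1 of 250 bases at chr7:74188108-74188357 on the plus strand.
CYBB: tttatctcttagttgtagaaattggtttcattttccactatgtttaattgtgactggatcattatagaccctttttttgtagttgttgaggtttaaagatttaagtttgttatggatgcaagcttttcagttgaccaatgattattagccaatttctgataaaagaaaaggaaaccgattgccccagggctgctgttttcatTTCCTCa
CYBA: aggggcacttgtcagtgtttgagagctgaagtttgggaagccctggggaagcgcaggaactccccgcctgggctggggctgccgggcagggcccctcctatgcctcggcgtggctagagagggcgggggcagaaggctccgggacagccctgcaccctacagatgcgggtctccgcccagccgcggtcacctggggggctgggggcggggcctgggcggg
NCF1: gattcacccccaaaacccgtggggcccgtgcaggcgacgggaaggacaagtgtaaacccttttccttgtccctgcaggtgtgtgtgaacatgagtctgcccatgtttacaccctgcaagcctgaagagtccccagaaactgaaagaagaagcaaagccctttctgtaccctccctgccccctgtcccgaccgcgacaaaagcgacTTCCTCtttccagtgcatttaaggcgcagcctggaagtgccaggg
In the CYBB stretch the word begins 7 bases before the TSS, and in NCF1 it begins 45 bases before it. It was not found at CYBA. The 5 words were looked for on both strands in the 300 bases of each RefSeq promoter, and they overlapped nowhere in these 3 promoters. GAGGAA occurred in 27.9% of the 35116 RefSeq promoters of that length. Of the other words, the one typical of GATA factors, AGATAA, was found at 1 place in the CYBB promoter and in 10.3% of all promoters. AGGTCA (the core word of retinoid receptor sites, 13.8% of all promoters), TTGCNNAA (C/EBP type, 10.5%) and TGTGGT (RUNX type, 13.1%) were in none of the 3. These are matches of letters in a short window and say nothing about which factors were bound.

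The H3K4me3 libraries held 13241 to 16487 peaks covering 47.7 to 63.2 Mb, and the H3K27ac libraries held 15457 to 39332 peaks covering 28.8 to 86.1 Mb, with the least coverage in control replicate 2 for H3K4me3 and in control replicate 1 for H3K27ac. Read depth is unknown, so a peak missing from a library may be a peak that was not detectable at its depth. An H3K4me3 peak lay at the TSS of 7 or 8 of 10 markers of the granulocyte line in each library, with ELANE and AZU1 lacking one in all 4. Of the markers of other cells, 0 of 4 T cell genes and 0 of 2 genes of epithelium and liver had one. Among 4 B cell genes the count was 0 or 1 per library, and among 4 erythroid genes it was 2, 0, 2 and 2 in ATRA replicates 1 and 2 and control replicates 1 and 2, with HBA1 and ALAS2 lacking one in all 4.

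For each gene, the length in bp under peaks was summed over the gene body plus 20 kb on each side, and a difference is called when both ATRA libraries lie on the same side of both control libraries. The log2 change is that of the mean lengths after adding 1000 bp to each, so changes from 0 depend on that constant and are no bound on a fold. Since the smallest two-sided p of an exact permutation test on 2 and 2 libraries is 0.33, no p-value is given for a gene. H3K4me3 was called higher at 2 of the 5 oxidase genes, and 30.1% of all protein-coding genes were called higher. None of the 5 was called lower, against 2.46% of all genes. H3K27ac was called higher at 4 of the 5, against 33.7% of all genes, and lower at 0, against 2.97%. Among genes with a peak of the mark in their window, 41.3% were called higher for H3K4me3 and 43.7% for H3K27ac. Without ATRA replicate 2 the H3K4me3 count was 5, against 42.6% of all genes, and without control replicate 1 it was also 5, against 59.2%. The median log2 change of the 5 genes was 0.19 for H3K4me3 and 1.46 for H3K27ac, beside 0.16 and 0.49 over the 14609 and 15477 genes with a peak of the mark in their window. Dividing each length by the total covered length of its library moved these all-gene medians to -0.036 and -0.13. On that scale 11.6% of all genes were called higher and 18.5% lower for H3K4me3, and 14.1% higher and 19.3% lower for H3K27ac, while 2 of the 5 oxidase genes were called higher for H3K4me3 (CYBB and NCF1) and 2 for H3K27ac (CYBB and CYBA).

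**Figure D1:**
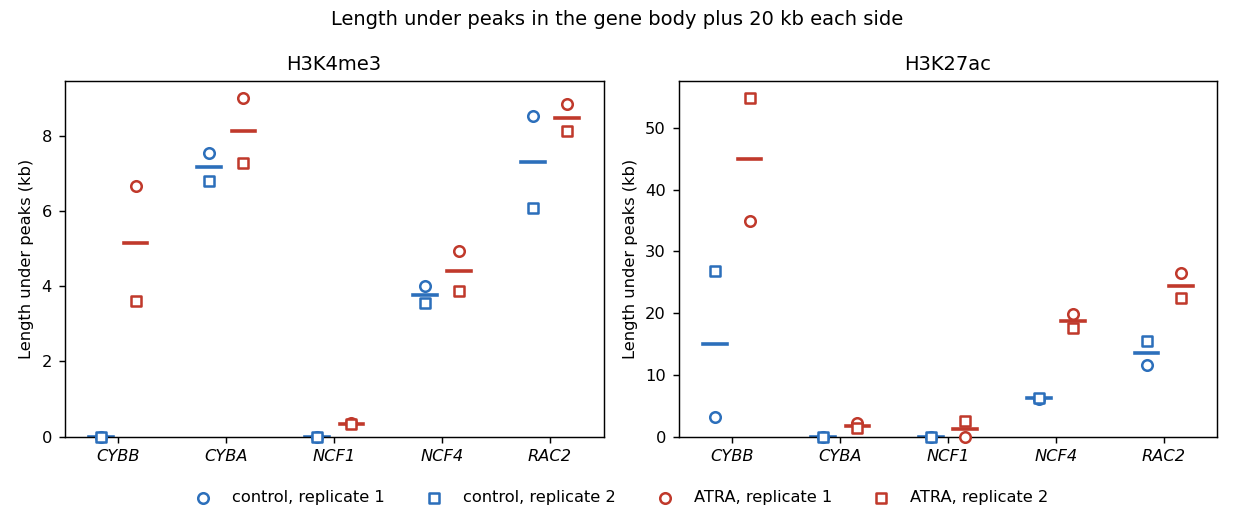
Length under peaks (kb) in the gene body plus 20 kb on each side of the 5 oxidase genes, for H3K4me3 (left) and H3K27ac (right), with circles for replicate 1, squares for replicate 2 and bars for the mean of the 2 replicates. The ATRA points lie above both control points for H3K27ac at CYBB, CYBA, NCF4 and RAC2 and for H3K4me3 at CYBB and NCF1, while H3K27ac at NCF4 and RAC2 overlapped once divided by the library total. Before that division the same held at 33.7% of all genes for H3K27ac and 30.1% for H3K4me3.

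CYBB (chrX:37639271-37672714, plus strand) had H3K4me3 over 6683 bp in ATRA replicate 1, 3605 bp in ATRA replicate 2 and 0 bp in both control libraries. The groups did not overlap, and the log2 change was 2.62. Control replicate 1, which had no peak there, covered 59.8 Mb of the genome, beside 63.2 and 62.3 Mb in the ATRA libraries. Covered length over the genome does not measure whether a peak was detectable at this gene, which was not tested. Of the 14609 genes with an H3K4me3 peak in their window, 12 had a larger log2 change. The peak over the TSS measured 5667 bp in ATRA replicate 1, from 1169 bp before the TSS to 4497 bp after it, and 3605 bp in ATRA replicate 2, from 383 bp before it to 3221 bp after it. Both therefore reached from the promoter into the first kilobases of the gene. Within the gene body 312 and 201 bp of these peaks lay on exons and the other 4186 and 3021 bp on introns. A separate peak of 1016 bp lay 5988 bp after the TSS in ATRA replicate 1 and wholly within an intron. The deposited −log10 q values of the 2 peaks at the TSS were 3.96 and 6.06.

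H3K27ac at CYBB covered 34927 and 54865 bp in ATRA replicates 1 and 2, and 3116 and 26750 bp in control replicates 1 and 2. All 4 libraries thus held H3K27ac in the window, and the 2 controls lay far apart. The means were 44896 ± 14098 bp with ATRA and 14933 ± 16712 bp in control (SD, n = 2 each), and the log2 change was 1.53. It was 3.48 without control replicate 2 and 0.73 without control replicate 1, whose library had the smallest covered length of the mark. Of the CYBB window, 47.6% and 74.7% lay under H3K27ac peaks with ATRA, against 4.24% and 36.4% in control.

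At the start of CYBB the controls had little or no H3K27ac over the TSS itself. Peaks within 1 kb of the TSS measured 9179 and 15232 bp with ATRA and 0 and 324 bp in control, with no overlap and a log2 change of 3.51. In control replicate 2 a further peak of 6348 bp began 1372 bp after the TSS, and in control replicate 1 a peak of 819 bp began 6106 bp after it. Counted as bp under peaks within 5 kb of the TSS, the values were 7887 and 10001 bp with ATRA and 0 and 6194 bp in control. Upstream of the gene the groups overlapped, with 11212 and 18134 bp with ATRA and 0 and 12197 bp in control over the 20 kb flank. Downstream they did not, with 9813 and 12619 bp against 2297 and 6221 bp. Of the H3K27ac peaks of replicate 1, 8 with ATRA and 3 in control shared bases with a peak of replicate 2, and 1 of the 8 overlapped no peak of either control library. These counts cannot exceed the peaks of replicate 1. The window held 8 and 8 peaks with ATRA and 3 and 10 in control, so the number of peaks overlapped between the groups.

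CYBA (chr16:88709683-88717491, minus strand), which stabilizes CYBB in the membrane and docks the cytosolic subunits, carried an H3K4me3 peak over its TSS in all 4 libraries. That peak measured 4520 and 2745 bp with ATRA and 3370 and 2325 bp in control, and the groups overlapped. Over the window H3K4me3 covered 9016 and 7277 bp with ATRA and 7547 and 6810 bp in control, again with overlap and a log2 change of 0.16. Part of this length belongs to the start of MVD, a gene of sterol synthesis whose TSS lies 12078 bp from that of CYBA, where the peak measured 4177 to 4532 bp in the 4 libraries. IL17C, whose TSS also lies in the window, had no peak of either mark at it.

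H3K27ac was found at CYBA with ATRA and not in control, a call that was lost when only peaks with −log10 q of at least 5 were kept. It covered 2114 and 1440 bp of the window with ATRA and 0 bp in both control libraries, with a log2 change of 1.47. Peaks within 1 kb of the TSS measured 484 and 1440 bp, the former running from 503 to 986 bp after the TSS and the latter from 448 bp before it to 991 bp after it. The other 1630 bp of ATRA replicate 1 lay at the MVD start. These peaks were short, with −log10 q values of 0.873 and 0.693 at the CYBA start, and 4.42% and 3.01% of the window was covered. H3K27ac therefore appeared beside an H3K4me3 peak that was present in both conditions, unlike at CYBB, where both marks at the TSS were longer in the ATRA libraries.

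**Figure D2:**
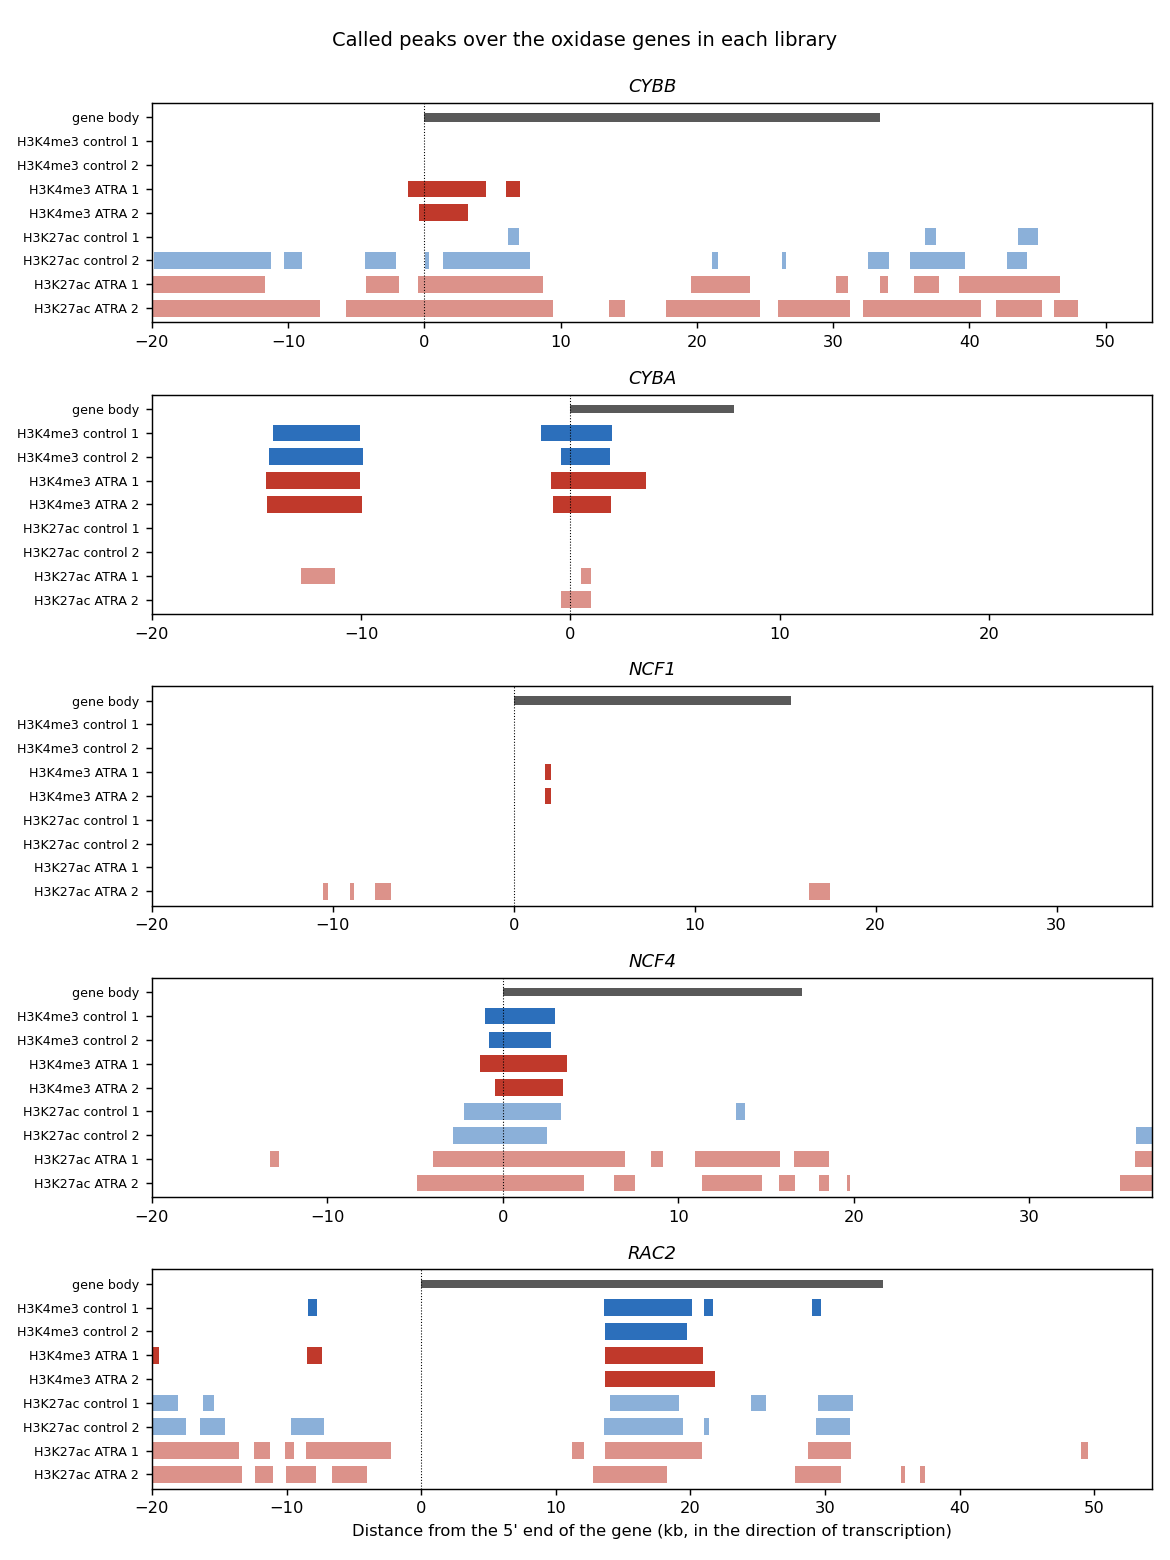
Called peaks of each library over the 5 oxidase genes, drawn by distance (kb) from the 5′ end of the gene in the direction of transcription, with the gene body as a gray bar, ATRA in red, control in blue and H3K27ac in lighter shades. H3K4me3 is drawn at the CYBB start in the ATRA rows and not in the control rows, and no peak of RAC2 lies at the 5′ end of its record.

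NCF4 (chr22:37257030-37274059, plus strand), the subunit that binds phosphoinositides on the phagosome, had an H3K4me3 peak at its TSS in all 4 libraries. It measured 4933 and 3884 bp with ATRA and 4012 and 3546 bp in control, and was the whole H3K4me3 of the window. The groups overlapped, with a log2 change of 0.18. Counted within the gene body, the lengths were 3654 and 3456 bp with ATRA and 2994 and 2762 bp in control, which did not overlap, while the upstream part of the peak (1279 and 428 bp against 1018 and 784 bp) did.

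H3K27ac at NCF4 had close replicates, at 19916 and 17621 bp with ATRA and 6051 and 6312 bp in control. The means were 18769 ± 1623 bp and 6182 ± 185 bp (SD, n = 2 each), the groups did not overlap and the log2 change was 1.46. Over each of the 4 pairs of an ATRA and a control library it was 1.35 to 1.57. The peak at the TSS measured 10947 and 9513 bp with ATRA and 5545 and 5366 bp in control, so the mark extended further on both sides of the start. Inside the gene a peak of 4818 and of 3395 bp began 10958 and 11377 bp after the TSS with ATRA, where control replicate 1 had a peak of 506 bp and control replicate 2 had none. Of 4 ATRA peaks found in both replicates, 1 overlapped no peak of either control library. Relative to the covered length of each library the values were 307 and 205 bp per Mb with ATRA and 210 and 117 bp per Mb in control, and the groups then overlapped.

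RAC2 (chr22:37621310-37655634, minus strand), the GTPase of hematopoietic cells that switches the assembled oxidase on, had no peak of either mark within 1 kb of the 5′ end of its gene record. Its H3K4me3 lay further in, over the starts of 6 annotated transcripts that begin 15146 to 15346 bp after that end. The peak there measured 7274 and 8125 bp with ATRA and 6525 and 6089 bp in control. With the other H3K4me3 peaks of the window the lengths were 8864 and 8125 bp with ATRA and 8523 and 6089 bp in control, which overlapped, with a log2 change of 0.19.

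H3K27ac covered 26501 and 22415 bp of the RAC2 window with ATRA and 11574 and 15504 bp in control. The groups did not overlap and the log2 change was 0.81. With only peaks of −log10 q of at least 5 the log2 change was -2.87, with 4 peaks kept in control replicate 2 and none in the other 3 libraries. Most of the difference lay before the 5′ end of the gene record, where the 20 kb flank held 14582 and 12821 bp with ATRA and 2745 and 6876 bp in control. The gene body itself held 11354 and 8866 bp against 8829 and 8628 bp. The longest of the upstream ATRA peaks measured 17173 and 14644 bp and ran past the end of the window, with 6508 and 6679 bp inside it. The outermost control peaks, of 10376 and 8845 bp, also ran past it, with 1946 and 2537 bp inside. All these peaks spanned an H3K4me3 peak of ATRA replicate 1 at chr22:37675134-37681301, of which 501 bp lay in the window. Whether this H3K27ac belongs to RAC2 or to a gene beyond the window was not tested. At the starts of all annotated transcripts together, peaks of the mark within 1 kb measured 10438 and 8866 bp with ATRA and 5137 and 5839 bp in control. Relative to the covered length of each library the window values were 409 and 260 bp per Mb with ATRA and 402 and 287 bp per Mb in control, which overlapped, with a log2 change of -0.041. The start of SSTR3, a somatostatin receptor gene, also lay in the window and had no peak of either mark.

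Lengths of peaks within 1 kb of the 5′ end of the gene record gave a similar picture by gene. For H3K4me3 they were called higher at 1 of the 5 genes, CYBB, against 21.9% of all genes, and lower at 0, against 2.56%. For H3K27ac they were called higher at 3, CYBB, CYBA and NCF4, against 17.4% of all genes, and lower at 0, against 2.23%. Among genes with a peak of the mark there in any library, 40.5% were called higher for H3K4me3 and 34.2% for H3K27ac. When the start of any annotated transcript was allowed, the H3K4me3 count became 3, with NCF1 and RAC2 added, against 24.1% of all genes. When only peaks with −log10 q of at least 5 were kept, both counts were 0, against 19.3% of all genes for H3K4me3 and 1.05% for H3K27ac.

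NCF1 (chr7:74188358-74203659, plus strand) lies in a segment of chromosome 7 that is present in near-identical copies holding NCF1B and NCF1C, so that reads from the 3 places cannot be told apart with certainty. The 300 bases of the NCF1 promoter matched without a mismatch at 3 places of the chromosome, at 74188108 on the plus strand for NCF1, 72634410 on the plus strand for NCF1B (chr7:72634659-72649979) and 74587719 on the minus strand for NCF1C (chr7:74572445-74587848). Of all 50-base words in the NCF1 window, 87.2% occurred again on chromosome 7, against 0.736% to 5.29% for the same count in the windows of the other 4 genes on their own chromosomes. How the authors' alignment treated reads with several matches is not given in the sources used here.

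At NCF1 itself, H3K4me3 covered 351 and 333 bp with ATRA and 0 bp in both control libraries. The groups did not overlap, with a log2 change of 0.42, and the 2 peaks covered nearly the same bases, from 1724 to 2074 and from 1732 to 2064 bp after the TSS, wholly within an intron. Their −log10 q values of 27.4 and 38.6 were higher than those of the CYBB peaks although they were far shorter. In these 2 peaks, 55.0% and 52.6% of the 50-base words recurred on the chromosome. No H3K4me3 peak was called in the windows of NCF1B or NCF1C, and the first 1 kb on either side of the NCF1 TSS held no peak of either mark in the 8 libraries.

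H3K27ac at NCF1 was called in 1 of the 4 libraries. It covered 2507 bp in ATRA replicate 2, in 4 peaks outside the gene body, and 0 bp in ATRA replicate 1 and both controls, so the groups overlapped. NCF1B had 774 bp in the same library alone, and NCF1C had 21778 bp in it and 3177 bp in control replicate 2. Summed over the 3 copies, H3K27ac covered 0 and 25059 bp with ATRA and 0 and 3177 bp in control. The mark was therefore seen in replicate 2 of each condition, and the libraries of replicate 2 had the larger covered length in both. The part of the copies and of the covered length in these values was not tested.

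**Figure D3:**
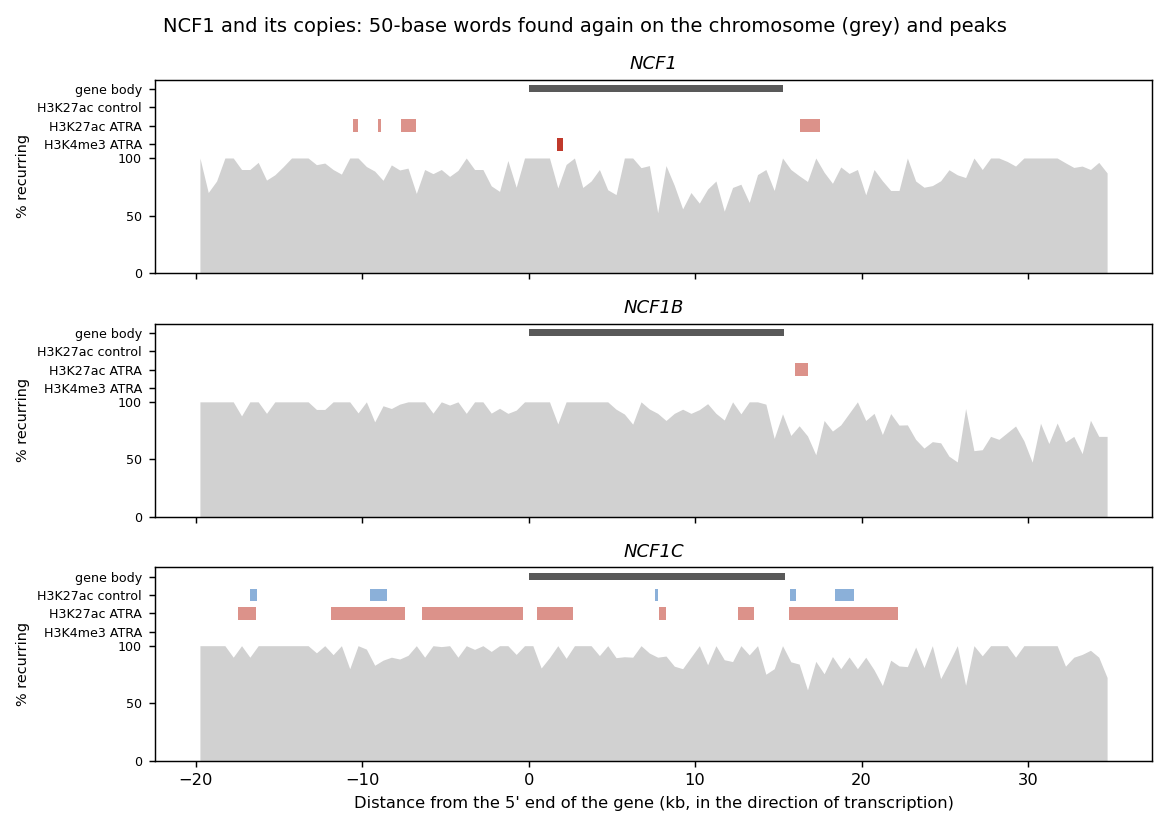
Share of 50-base words that occur again on chromosome 7 in bins of 500 bp (gray, percent) and the called peaks of both replicates, over NCF1, NCF1B and NCF1C with 20 kb on each side, by distance (kb) from the 5′ end of each gene. Over the whole windows 87.2%, 87.1% and 92.1% of words recur, with single bins as low as 52.4%, 47.6% and 61.6%, and H3K4me3 is drawn at NCF1 alone.

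Per length of window, the order of the 5 genes differed between the marks. For H3K4me3 with ATRA the window of CYBA held the most, at 18.9% and 15.2% under peaks with the MVD start included, followed by RAC2 at 11.9% and 10.9%, NCF4 at 8.65% and 6.81%, CYBB at 9.10% and 4.91%, and NCF1 at 0.635% and 0.602%. RAC2 lay apart from both CYBA and the next genes, and NCF4 and CYBB did not differ beyond their spread. For H3K27ac with ATRA, CYBB stood first, RAC2 (35.7% and 30.2%) and NCF4 (34.9% and 30.9%) did not differ beyond their spread, and CYBA (4.42% and 3.01%) and NCF1 (0% and 4.53%) came last and did not differ beyond their spread. In control, RAC2 had 15.6% and 20.9% and NCF4 10.6% and 11.1% of the window under H3K27ac, and the 2 CYBB values lay on either side of both.

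**Figure D4:**
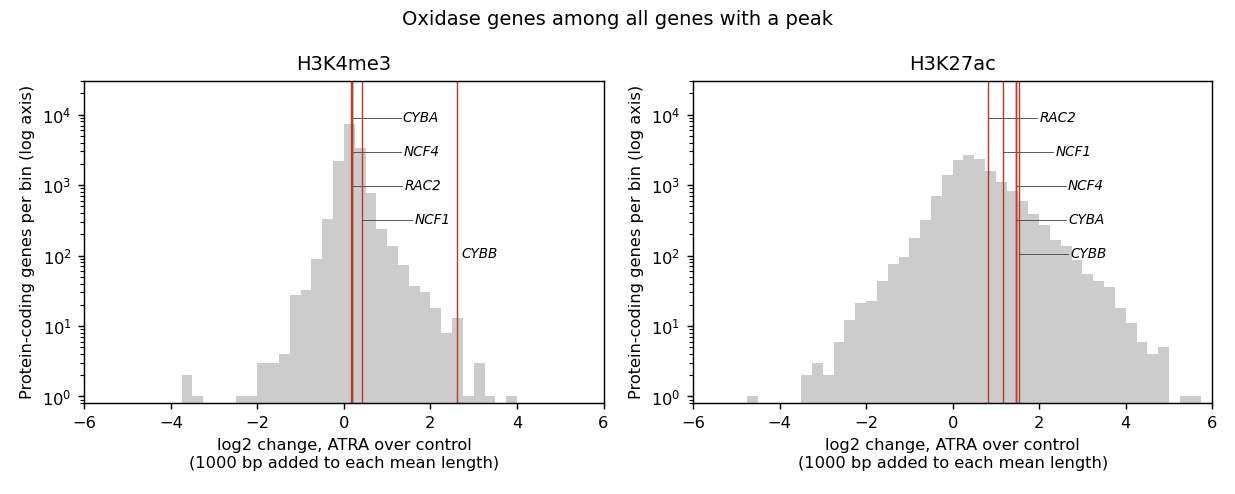
Number of protein-coding genes (log axis) by log2 change of the covered length, ATRA over control, in bins of 0.25, for genes with a peak of the mark, with red lines at the 5 oxidase genes. CYBB lies at 2.62 for H3K4me3, far from the other 4 genes at 0.16 to 0.42, while for H3K27ac the 5 lie between 0.81 and 1.53.

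The genes closest to each oxidase gene in length over all 8 libraries were found by the root mean square difference of log2 lengths, leaving out its own chromosome. As 1000 bp was added to each length, short lengths give small distances. How many genes shared each pattern was not counted. CYBB was closest to INAVA (0.484) and TGM5 (0.561). The distances were smaller for CYBA with ISG15 (0.126) and TUBG1 (0.155), for NCF1 with SLC30A10 (0.136) and GJA10 (0.147), for NCF4 with PSAP (0.203) and ARRB1 (0.255), and for RAC2 with ADIPOR2 (0.166) and S100A3 (0.173). INAVA had 5165 and 3813 bp of H3K4me3 with ATRA and 566 and 0 bp in control, and TGM5 had 2995 and 2737 bp with ATRA and 0 bp in both controls, as at CYBB.

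A list of 11 other genes of the phagocyte oxidase and its regulation had peaks of both marks in their windows. H3K27ac was called higher at 9 of these 11 genes and lower at 0, with a median log2 change of 1.64. H3K4me3 was called higher at 6 and lower at 0, with a median of 0.33. The shares called higher were 33.7% of all genes for H3K27ac and 30.1% for H3K4me3. Among genes with a peak of the mark in their window they were 43.7% and 41.3%. Divided by the covered length of the library, H3K27ac was called higher at 9 and lower at 0, and H3K4me3 higher at 3 and lower at 1, against 14.1% and 11.6% of all genes called higher and 19.3% and 18.5% lower. The largest H3K27ac change was at PAK1, a kinase that phosphorylates p47phox, with 3686 and 17874 bp with ATRA and 0 and 816 bp in control.

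PRKCD, a kinase that phosphorylates the cytosolic subunits, had 33843 and 26315 bp of H3K27ac with ATRA and 4654 and 9473 bp in control. RAP1A, a GTPase that copurifies with cytochrome b558, had 24202 and 18866 bp against 3639 and 6159 bp. RAC1, the widely expressed relative of RAC2, had 6241 and 10332 bp against 558 and 2629 bp. PIK3CG, the lipid kinase downstream of chemoattractant receptors, had 17557 and 19741 bp against 4398 and 5722 bp. VAV1, an exchange factor that activates Rac GTPases, had 14009 and 18900 bp against 2036 and 7168 bp. Both ATRA libraries lay above both control libraries at each of these genes, which were named because they were called and had the largest changes. The groups overlapped at ARHGDIB (15958 and 26305 bp with ATRA, 9229 and 16061 bp in control) and at HVCN1 (3995 and 10955 bp against 240 and 6615 bp).

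Of 10 NADPH oxidase genes of other tissues and their partners, 5 had no H3K4me3 peak in their window in any library and 5 had no H3K27ac peak. Both marks were called higher at 2 of the 10, NOXA1 and NOXO1, partners of the oxidase of the colon, and lower at 0, against 30.1% of all genes higher for H3K4me3 and 33.7% for H3K27ac. Divided by the covered length of the library, H3K27ac was called higher at 1 and lower at 1 of the 10, and H3K4me3 higher at 1 and lower at 0, against the all-gene shares on that scale of 14.1% higher and 19.3% lower and of 11.6% higher. H3K27ac at NOXA1 covered 5782 and 3817 bp with ATRA and 559 and 1801 bp in control, and at NOXO1 7008 and 8412 bp against 5840 and 6078 bp. Within 1 kb of the 5′ end, H3K27ac was called higher at 0 of the 10, against 17.4% of all genes, and H3K4me3 at 2, against 21.9%. H3K27ac peaks there measured 641 and 319 bp against 0 and 833 bp at NOXA1, and 0 and 305 bp against 0 and 0 bp at NOXO1. The part of neighbouring genes in the window values was not tested. The median log2 change of the 10 genes was 0.056 for H3K4me3 and 0.047 for H3K27ac. NOX4, NOX5, DUOX2 and DUOXA2 had no peak of either mark.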

How the data were processed

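Per the labels and the study's methods, the authors trimmed the reads, mapped them to hg19 (Bowtie) and ran MACS2 in its broad mode on every library of HL-60 cells alone, with versions and the use of input libraries in the call not given in the sources used here. The files they deposited hold peak positions and, for each peak, a −log10 q value, the negative log10 of an adjusted p-value. That value served only as a filter of at least 5 and as a description of single peaks. The 2 deposited columns for fold enrichment and −log10 p were left out, since some of their values are impossible for either measure. The −log10 q values come from the same files, and whether they are sound was not tested. Read depth is unknown, and precision rests on 2 libraries per condition and mark.

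All protein-coding genes of GENCODE release 44 on GRCh37 were taken. The bp under peaks in the gene body plus 20 kb each side, and the whole length of peaks within 1 kb of the 5′ end of the gene record, were computed with Python 3.11.15 and numpy 2.4.6 and checked on simulated peaks. Groups came from the sample labels. A gene was called when the lower ATRA library exceeded the higher control library, or the reverse, with no p-value. Log2 changes used means plus 1000 bp. Peaks found in both replicates were peaks of replicate 1 that shared 1 bp or more with a peak of replicate 2. The nearest genes were 2 per oxidase gene. Genes of the 2 lists were named where called, at most 6 a list, by the size of the H3K27ac log2 change. Of the listed genes, 1 is not reported here. Figures were drawn with matplotlib 3.10.9. The genes, lists and rules were chosen with earlier results of these data known. The alternatives tried are given in the closing section.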

Additional observations from a re-analysis of the deposited data

How the results depend on the processing

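H3K4me3 was called higher at 2 oxidase genes over the window. The replicate block, which compares ATRA with control within each replicate number, gave 5, where it called 40.2% of all genes in place of 30.1%, and leaving out each library in turn gave 2 to 5. The deposited peak names of same-numbered ATRA and control libraries share a tag, but the labels do not say that a number marks a shared culture or day and there are 2 numbers, so the block was not used as the main comparison. Across genes, deviations from the condition mean correlated between same-numbered libraries (Pearson's r of 0.256 for H3K4me3 and 0.504 for H3K27ac). In both conditions the larger covered length was that of replicate 1 for H3K4me3 and of replicate 2 for H3K27ac. The part of covered length in these correlations was not tested. The count at the TSS, 1, became 3 with the block (28.6% of all genes), 3 with the start of any transcript, 2 with bp within 5 kb and 0 with −log10 q of at least 5, and was 1 to 3 when each library was left out. The median H3K4me3 change, 0.19, was 0.0036 after division by the library total, 0 by the number of peaks, 0.42 with −log10 q of at least 5, and 0.11 to 0.42 when each library was left out.

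For H3K27ac the block changed no count of oxidase genes, while the share of all genes called higher rose. That share was 48.2% in place of 33.7% over the window and 25.6% in place of 17.4% at the TSS. The count over the window, 4, became 2 both after division by the total covered length and with −log10 q of at least 5, and the count at the TSS, 3, became 0 with that filter. The median change, 1.46, became 0.80 in the gene body alone, 0.89 after division by the total, 0.92 with 2000 bp added and 0 with the filter. RAC2 reversed, to -0.041 after division by the total and to -2.87 with the filter. With the filter 25% of all genes were called higher for H3K4me3 and 4.23% for H3K27ac, where 12.8% to 16.9% of the peaks of a library passed it. Of the alternative values for single genes, 48 of 65 for H3K4me3 and 45 of 65 for H3K27ac moved by less than the replicate spread. These include values that could not move, since leaving out a control library changes nothing where both control lengths were 0. The causes of the differences between settings were not tested.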
